A study of Mus musculus with 8 samples.

Results

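The basement membrane genes described here are 10 rows of a read count table of 24454 genes. They were taken by name: the type IV collagen chains Col4a1 and Col4a2, the laminin chains Lama1, Lama4, Lama5, Lamb1 and Lamc1, the linker Nid1, the heparan sulfate proteoglycan Hspg2 and the collagen-binding glycoprotein Sparc. All 10 were found and all 10 passed the filter on low counts. Lama1 and Lama5 are treated as the epithelial laminin alpha chains and the other 8 as the vessel chains and linked matrix. This grouping is a label only, as Lamb1 and Lamc1 are chains shared between laminins. RNA was measured in 8 small pools of sorted mouse yolk sac cells of stage E11.5. All pools were of the strain miR144-451+/GFP C57BL/6, in which GFP sits at a microRNA locus active in red cells, so every group carried the GFP allele. The endothelial group was 3 pools of 25 cells gated VE-Cadherin+GFP- (replicates 1 to 3), and the erythroid group 3 pools of 25 cells gated VE-Cadherin-GFP+ (replicates 4 to 6). The double positive group was 2 pools of 24 cells that carried both signals (replicates 7 and 8), labelled Endothelial-Erythroid. No treatment was given. The labels do not say which pools share an embryo, and the p-values therefore cover only the variation among pools, part of which may be technical.

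A basement membrane is a thin sheet of matrix beneath epithelia and around vessels. Laminins, each built of an alpha, a beta and a gamma chain, form the layer nearest the cell, and type IV collagen, built of alpha1 and alpha2 chains in most tissues, forms a cross-linked network beside it. Nidogen and perlecan, encoded by Nid1 and Hspg2, link these networks. The laminin alpha chain sets which receptors a laminin binds: Lama4 is the alpha chain typical of endothelium, Lama1 is typical of early embryonic epithelia and endoderm, and Lama5 is typical of mature epithelia and is also made by vessels. In the yolk sac, vessels lie between an endoderm layer and a mesothelial layer, and both the vessels and the endoderm rest on basement membranes.

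The members lie on 9 chromosomes of GRCm38. Col4a1 (chromosome 8, 11198423 to 11312826, minus strand) and Col4a2 (chromosome 8, 11312805 to 11449287, plus strand) lie head to head. Their annotated starts face each other and overlap by 22 bases, in the first exons of both. The stretch is shown because the pair's ratio overlapped between the populations that expressed both genes. The capitals mark the 22 bases shared by the 2 annotated first exons, on the plus strand of chr8:11312801-11312830 from RefSeq (GRCm38.p6), and the shared part holds a GC box (GGGCGG).

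Col4a1 and Col4a2 starts: cggcAGTGCGCGGGCGGCGTCTCCAAgggg

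The laminin genes are Lama1 (chromosome 17, 67697259 to 67822647, plus strand), Lama4 (chromosome 10, 38965515 to 39110188, plus strand), Lama5 (chromosome 2, 180176373 to 180225859, minus strand), Lamb1 (chromosome 12, 31265234 to 31329644, plus strand) and Lamc1 (chromosome 1, 153218922 to 153332786, minus strand). Nid1 lies on chromosome 13 (13437551 to 13512269, plus strand), Hspg2 on chromosome 4 (137468769 to 137570630, plus strand) and Sparc on chromosome 11 (55394500 to 55423183, minus strand). RefSeq promoter entries matched 7 of the 10 members. Windows from 250 to 61 bases before the start, 190 bases long, are shown for 4 members whose windows hold no annotated exon: 2 that were lower in the double positive pools (Nid1, Hspg2), 1 that was not called (Lamb1) and 1 epithelial chain (Lama5). The windows are chr13:13437352-13437541 (plus strand), chr4:137468553-137468742 (plus strand), chr12:31265043-31265232 (plus strand) and chr2:180225920-180226109 (minus strand), GRCm38.p6. Capitals mark GC boxes (GGGCGG) and CCAAT boxes (CCAAT) on either strand.

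Nid1: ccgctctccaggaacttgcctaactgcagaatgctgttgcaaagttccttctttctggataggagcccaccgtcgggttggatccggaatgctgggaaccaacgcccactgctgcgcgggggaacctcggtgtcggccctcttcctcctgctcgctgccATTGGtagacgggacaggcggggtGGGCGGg
Hspg2: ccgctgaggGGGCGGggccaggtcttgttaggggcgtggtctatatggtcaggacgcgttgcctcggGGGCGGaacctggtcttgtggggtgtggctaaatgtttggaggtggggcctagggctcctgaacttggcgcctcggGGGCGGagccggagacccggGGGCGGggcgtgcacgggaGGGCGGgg
Lamb1: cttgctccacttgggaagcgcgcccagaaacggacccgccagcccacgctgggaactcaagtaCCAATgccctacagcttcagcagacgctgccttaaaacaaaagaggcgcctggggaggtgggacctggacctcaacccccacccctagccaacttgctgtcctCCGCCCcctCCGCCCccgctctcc
Lama5: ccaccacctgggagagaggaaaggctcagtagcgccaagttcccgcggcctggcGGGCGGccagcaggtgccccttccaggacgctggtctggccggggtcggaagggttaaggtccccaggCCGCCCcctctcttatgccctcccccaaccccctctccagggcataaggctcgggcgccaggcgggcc

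The Hspg2 window held 5 GC boxes, those of Lamb1 and Lama5 held 2 each and that of Nid1 held 1. Nid1 and Lamb1 also held 1 CCAAT box each. The 4 windows were 62.6% to 71.1% G and C. Col4a1, Col4a2 and Sparc were scored too but not shown, as their windows overlap annotated exons. Of these, Col4a2 held 1 GC box alone, Col4a1 held 1 CCAAT box and no GC box, and Sparc held neither. Among 32851 mouse promoter windows of the same span, 22.8% held a GC box and 26.7% a CCAAT box. None of the 4 windows held the letters TATAAA, present in 8.73% of windows, or CCGGAAGT, an ETS site present in 1.22%. The windows stop 61 bases before the start, so the absence of TATAAA says nothing about the bases nearer the start. These matches describe the letters only.

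The 8 libraries held 3723128 to 7618444 counts each, and reads carried no molecular identifiers, so floors cover counting error only. Levels are in CPM, read counts scaled to library sizes that were corrected by TMM (trimmed mean of M values). The 10 endothelial markers read as a check of the gate summed to 3322 to 5164 CPM in endothelial libraries, 1.96 to 9.09 CPM in erythroid libraries (9 of 10 at 0 counts, Cdh5 among them) and 521 and 709 CPM in double positive libraries. The 10 visceral endoderm markers summed to 90357 and 90466 CPM in double positive libraries and at most 46.0 CPM elsewhere, with Lrp2 and Cldn6 at 0 in the endothelial libraries. The epithelial markers Epcam, Cdh1, Krt8, Krt18 and Krt19 summed to 2096 and 1844 CPM in double positive libraries and at most 9.78 CPM elsewhere. Erythroid markers summed to 78915 and 137729 CPM in double positive and at most 48.3 CPM in endothelial libraries. The parietal endoderm list summed to 35.6 and 47.3 CPM in double positive and 205 to 354 CPM in endothelial libraries. Most of that was Thbd, which endothelium also expresses, at 198 to 319 CPM in endothelial libraries. Of its other genes Fst was at 0 in both populations. Pth1r was at 0 in endothelial, at 3.63 and 3.46 CPM in double positive libraries and at 4.89 CPM in erythroid replicate 6. Plat averaged 4.95 CPM in endothelial libraries, all of it in replicate 3, and 2.26 CPM in double positive libraries. Snai1 averaged 11.2 CPM in endothelial and 3.79 CPM in double positive libraries. The double positive libraries also held the mesenchyme, mesothelium and mural cell list at 386 and 340.1 CPM, against 10.3 to 14.2 CPM in endothelial libraries. Of its 8 tested members 6 were higher in double positive libraries (Col1a1, Col1a2, Col3a1, Lum, Postn and Dcn, at means of 15.7 to 102 CPM), while Pdgfrb and Wt1, too low to test, averaged 0.395 and 0.102 CPM there. Endothelial replicate 2 stood apart, with a macrophage list sum of 2923 CPM against 1226 and 1377 CPM in replicates 1 and 3, and with the lowest endothelial marker sum of the 3. In bulk pools, fewer cells of a type and less RNA per cell cannot be told apart, and pooled RNA cannot be traced to single cells.

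The 10 members together summed to 2784, 2106 and 2921 CPM in endothelial replicates 1 to 3, to 26.3, 11.7 and 40.4 CPM in erythroid replicates 4 to 6, and to 1172 and 942 CPM in double positive replicates 7 and 8. Compared per kilobase of merged exons, Sparc was the most abundant member in endothelial libraries at 315 ± 81.6 CPM per kb (SD, n = 3). Col4a1 followed at 84.5 ± 13.7, Col4a2 at 41.6 ± 9.44 and Nid1 at 33.9 ± 3.64 CPM per kb, the ranges of the last pair overlapping. A lower tier of Lamb1, Lamc1, Lama4 and Hspg2 stood between 7.26 and 4.23 CPM per kb, with neighbouring ranges overlapping. The epithelial chains Lama1 (1.25 ± 1.40 CPM per kb) and Lama5 (1.03 ± 0.494 CPM per kb) were lowest, and their ranges overlapped. In double positive libraries Sparc, Col4a1, Col4a2 and Nid1 kept the first 4 places (102 ± 3.58, 37.5 ± 10.1, 20.9 ± 3.37 and 8.03 ± 0.681 CPM per kb, SD, n = 2). The lowest places went to Hspg2 (1.03 ± 0.0173 CPM per kb) and Lama4 (0.848 ± 0.1003 CPM per kb), below Lama5 (3.68 ± 0.826) and Lama1 (3.04 ± 0.453). With the longest transcript as the length, Lama4 stood above Hspg2 there, at 1.69 against 1.04 CPM per kb. Coverage along long transcripts was not tested, and it bears on levels set between genes.

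**Figure D1:**
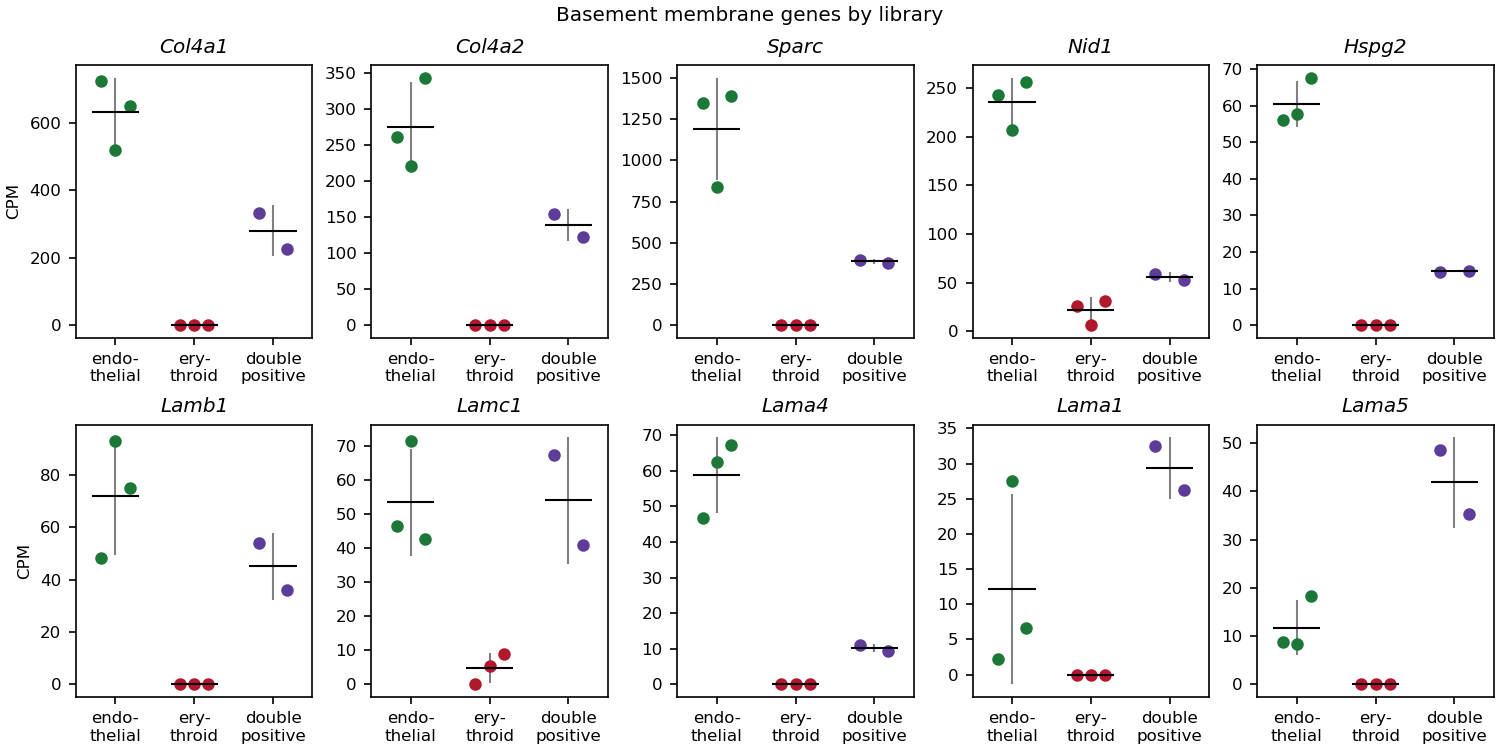
CPM of each member (vertical axes, separate scales) in the 3 endothelial, 3 erythroid and 2 double positive libraries. Points are libraries, black lines group means and grey bars 1 SD; Nid1 and Lamc1 are the members with counts in erythroid libraries, and Lama1 and Lama5 have higher means in double positive than in endothelial libraries.

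In the comparison of erythroid with endothelial libraries, the red cell pools held few basement membrane reads: 8 of the 10 members had 0 counts in all 3 erythroid libraries, and Nid1 and Lamc1 were the exceptions. All 10 were lower by edgeR's quasi-likelihood test (adjusted p under 0.05), where 41.0% of the 12136 genes tested were called, 26.6% lower and 14.4% higher. With library size alone as the scaling, 3.46% of genes were higher and 59.9% lower, and the median log2 difference of all genes moved from −0.36 to −1.90. The median log2 difference of the members was −7.71 with genes at 0 set to their bound, against −0.34 over all genes tested. Folds against a group at 0 were computed against a floor of 3 counts over the group, 0.285 CPM in erythroid libraries.

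Sparc, which binds collagen and calcium, stood at 1349, 837 and 1393 CPM in endothelial replicates 1 to 3 and was at least 4179-fold lower in erythroid libraries (adjusted p = 2.5e-06, edgeR). Col4a1, the alpha1 chain, stood at 722, 519.9 and 650.3 CPM and was at least 2210-fold lower, and its partner Col4a2 stood at 261, 222 and 344 CPM and was at least 966-fold lower. Every endothelial library was high for these 3 genes and no erythroid library had a count.

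Hspg2, the perlecan core protein gene, stood at 56.2, 57.7 and 67.7 CPM in endothelial libraries, at least 212-fold above the erythroid floor. Lamb1, the beta1 chain that pairs with several alpha chains, stood at 48.3, 92.9 and 74.8 CPM and was at least 252-fold lower in erythroid libraries. Lama4 stood at 46.7, 62.4 and 67.2 CPM and was at least 206-fold lower. The weakly expressed Lama5 was at least 41.2-fold lower. Lama1 was at least 42.5-fold lower, but at least 15.5-fold without endothelial replicate 2, which held most of its counts.

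Nid1, which bridges laminin and collagen, was not at 0 in the red cells. It had 113, 20 and 97 counts in erythroid replicates 4, 5 and 6, or 26.3, 6.35 and 31.6 CPM, against 243, 207 and 256 CPM in the endothelial libraries. The groups did not overlap, as was true of 6162 of the 12136 genes tested. Nid1 was 10.9-fold lower in erythroid libraries (log2 difference −3.45, SE 0.47, adjusted p = 0.000457, edgeR). Lamc1, the gamma1 chain, had 0, 17 and 27 counts in the same libraries, or 0, 5.39 and 8.81 CPM, against 46.3, 71.2 and 42.5 CPM, and was 11.6-fold lower (log2 difference −3.54, SE 0.87, adjusted p = 0.0106, edgeR). The Lamc1 log2 difference was −4.45 without replicate 6 and −5.08 with library size alone, and that of Nid1 −4.99 with library size alone, all past the threshold. All 5 laminin alpha chain genes and the beta chain genes Lamb1, Lamb2 and Lamb3 had 0 erythroid counts. A gamma chain forms no laminin trimer without an alpha and a beta chain. The endothelial markers were near 0 in the erythroid libraries and Cdh5 was at 0. The source of the Nid1 and Lamc1 counts in them was not tested. The annotated antisense gene Gm48682 lies over 699 exon bases of Nid1 and is not in the table. Whether strand was used in counting is not given in the sources used here, so reads of Nid1 and of that gene cannot be told apart. The same holds for Col4a1 and Col4a2, where the antisense genes Gm15418 and Gm15419, also not in the table, lie over 1748 and 1074 exon bases, so it bears on their levels and ratio. No antisense gene overlaps an exon of Lamc1.

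Double positive and endothelial pools share the VE-Cadherin gate and differ in GFP. In the double positive pools 6 of the 8 vessel chains and linked matrix genes were lower, Lamb1 and Lamc1 were not called, and neither were the epithelial chains Lama1 and Lama5. Of all 10 members, 6 were lower, 0 higher and 4 not called (edgeR, adjusted p under 0.05), against 21.6% called, 6.92% lower and 14.6% higher, among all 12136 genes. The median log2 difference of the 10 members was −1.08, against 0.06 over all genes tested. Of the 10 members 7 did not overlap between the groups, against 6978 of the 12136 genes tested, so such separation was common. The 6 were Col4a1, Col4a2, Sparc, Nid1, Hspg2 and Lama4. With library size alone as the scaling the same 6 were lower, with 15.7% of genes lower and 9.21% higher, and the median of all genes moved from 0.06 to −0.57. Markers of several cell types moved with this comparison. In double positive libraries 10 of 10 visceral endoderm, 5 of 5 epithelial and 9 of 10 erythroid markers were higher. So were 6 of 8 tested mesenchyme, mesothelium and mural markers, while 9 of 10 endothelial and 9 of 10 macrophage markers were lower there. The macrophage list summed to 103 and 151 CPM there, against 1226 to 2923 CPM in endothelial libraries. The part of these cell types in the members' differences was not tested. With only 2 double positive libraries these calls were fragile: 2 members (Col4a1 and Sparc) passed without replicate 7 and 1 (Sparc) without replicate 8, when 1.70% and 2.18% of all genes were lower.

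Among the network formers, Col4a1 stood at 333 and 226 CPM in double positive replicates 7 and 8, against 722, 519.9 and 650.3 CPM in the endothelial libraries, and was 2.26-fold lower (log2 difference −1.17, SE 0.24, adjusted p = 0.0154, edgeR). Col4a2 stood at 154 and 123 CPM against 261, 222 and 344 CPM, 1.99-fold lower (log2 difference −0.99, SE 0.25, adjusted p = 0.0336, edgeR). Both chains were lower in every double positive library than in every endothelial library. The Col4a2 call ended without replicate 1 (adjusted p = 0.0702), 3 (0.0755), 7 (0.104) or 8 (0.215). Sparc stood at 397 and 378 CPM against 1349, 837 and 1393 CPM, a 3.08-fold lower level (log2 difference −1.62, SE 0.25, adjusted p = 0.00552, edgeR). Its call held in all 14 refits with another tool, scaling by all genes, filter or set of libraries, with adjusted p up to 0.0388, which was true of no other member called here.

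The linkers and the endothelial alpha chain were lower by more. Nid1 stood at 59.1 and 52.4 CPM against 243, 207 and 256 CPM (log2 difference −2.08, SE 0.50, adjusted p = 0.0202, edgeR). Hspg2 stood at 14.5 and 14.9 CPM against 56.2, 57.7 and 67.7 CPM (log2 difference −2.04, SE 0.37, adjusted p = 0.00982). Lama4 stood at 11.1 and 9.37 CPM against 46.7, 62.4 and 67.2 CPM, 5.73-fold lower and the largest fall among the members (log2 difference −2.52, SE 0.42, adjusted p = 0.00727). None of these 3 genes overlapped between the groups, as was true of 6978 of the 12136 genes tested. Cdh5, the gene of the sorted protein, had a log2 difference of −2.03 (SE 0.25, adjusted p = 0.00201) between the same libraries. The Lama4 and Hspg2 calls ended without replicate 7 or 8 (adjusted p from 0.0583 to 0.0934), and the Nid1 call ended without replicate 1, 3, 7 or 8 (0.0516 to 0.14).

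The shared laminin chains did not pass. Lamb1 stood at 54.1 and 36.1 CPM in double positive libraries against 48.3, 92.9 and 74.8 CPM in endothelial libraries, with overlapping groups (log2 difference −0.67, SE 0.39, adjusted p = 0.294, edgeR). Lamc1 stood at 67.1 and 40.8 CPM against 46.3, 71.2 and 42.5 CPM, also overlapping (log2 difference 0.02, SE 0.83, adjusted p = 0.994). The sign of the Lamc1 difference depended on the scaling, and its SE leaves room for changes of over 1 log2 unit in either direction at 2 SE.

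The epithelial chains had higher means in double positive libraries but were not called. Lama5 stood at 48.6 and 35.3 CPM against 8.73, 8.31 and 18.3 CPM in the endothelial libraries, so the groups did not overlap (log2 difference 1.83, SE 0.56, adjusted p = 0.06, edgeR). It passed with limma-voom (adjusted p = 0.00527) and in a fit of these 2 populations alone (0.0186). In the other 12 of 14 refits it was not called. Its log2 difference ran from 1.21 to 2.28 over the 14. Lama1 stood at 32.5 and 26.3 CPM against 2.25, 27.5 and 6.62 CPM (log2 difference 1.28, SE 0.99, adjusted p = 0.437). Endothelial replicate 2, the library with the highest macrophage sum, held 169 of the 227 endothelial Lama1 counts and overlapped the double positive range. Without it the Lama1 log2 difference was 2.72 (adjusted p = 0.0803, edgeR), so 1 library decided the size of this difference. The part of the macrophage cells in that Lama1 level was not tested. Visceral endoderm markers in replicate 2 summed to 46.0 CPM, against 30.2 and 30.5 CPM in replicates 1 and 3.

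**Figure D2:**
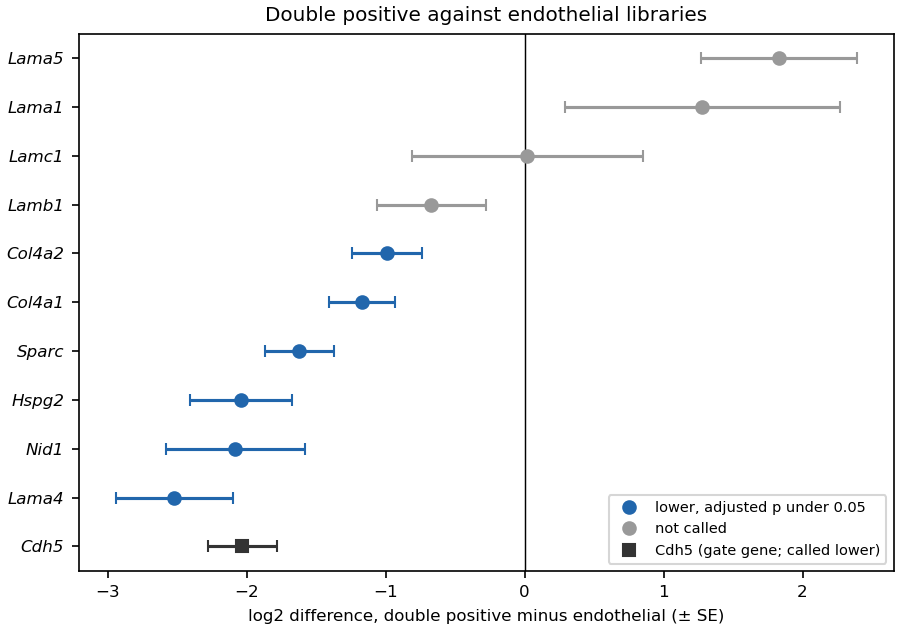
Fitted log2 difference of each member and of Cdh5, double positive minus endothelial libraries (horizontal axis), with bars of 1 SE. The 6 called members lie between −2.52 and −0.99, Lamb1 and Lamc1 nearer 0, and Lama1 and Lama5 above 0 without passing the test.

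Ratios within a library do not depend on the scaling, so the makeup of the laminin alpha chains was compared per kilobase of merged exons. In the endothelial libraries Lama4 made up 66.1%, 54.4% and 57.7% of the 5 alpha chains in replicates 1 to 3, and in the double positive libraries 10.3% and 11.3%. Lama1 and Lama5 together made up 17.1%, 37.6% and 23.7% of the endothelial alpha chains and 85.2% and 84.3% of the double positive ones, a mean of 26.1% ± 10.5 (SD, n = 3) against 84.7% ± 0.586 (SD, n = 2). The groups did not overlap, and the difference of 58.6 percentage points had an exact permutation p of 0.2, two-sided, which is the smallest that 3 against 2 libraries allow (adjusted 0.229 over 8 such ratios and shares). The exact test therefore cannot pass here at any size of difference.

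Of the double positive alpha chains Lama5 made up 47.6% and 44.9% and Lama1 37.5% and 39.4%. In endothelial replicates 1 to 3 Lama5 made up 13.1%, 7.68% and 16.6% and Lama1 3.97%, 29.9% and 7.08%. The Lama1 share in replicate 2 was therefore nearer to the double positive libraries than to the other endothelial libraries. Lama3, an alpha chain best known from skin but also made as a full-length form by vessels, took 16.8%, 7.98% and 18.7% of the endothelial and 4.57% and 3.85% of the double positive alpha chains. Lama2, the alpha chain of muscle, was at 0 counts in all endothelial libraries and had 3 counts in replicate 8. Merged exons of Lama4 span 12068 bases against 6046 in its longest transcript. With the longest transcript as the length, Lama4 made up 74.1% of endothelial and 19.2% of double positive alpha chains on average.

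Set against Lama4 in the same library, the Lama5 level per kilobase was 0.198, 0.141 and 0.288 times that of Lama4 in endothelial replicates 1 to 3 and 4.64 and 3.99 times in the double positive libraries, a 21.5-fold shift of the geometric means. The Lama1 to Lama4 ratio was 0.0600, 0.550 and 0.123 in endothelial and 3.65 and 3.50 in double positive libraries, a 22.4-fold shift. The difference of log2 ratios, 4.49, was 3.78 without endothelial replicate 1 and 5.38 without replicate 2, against 4.17 to 4.69 with 1 library left out for Lama5 to Lama4. Neither ratio overlapped between the groups, and each had an exact permutation p of 0.2, the smallest possible with the smaller tail doubled (two-sided, n = 3 and 2). By contrast the ratio of Col4a1 to Col4a2 was 2.45, 2.08 and 1.68 in endothelial and 1.91 and 1.63 in double positive libraries. These overlapped (exact permutation p = 0.4, two-sided, difference of log2 ratios −0.211, n = 3 and 2), and Col4a1 exceeded Col4a2 per kilobase in all 5 libraries.

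**Figure D3:**
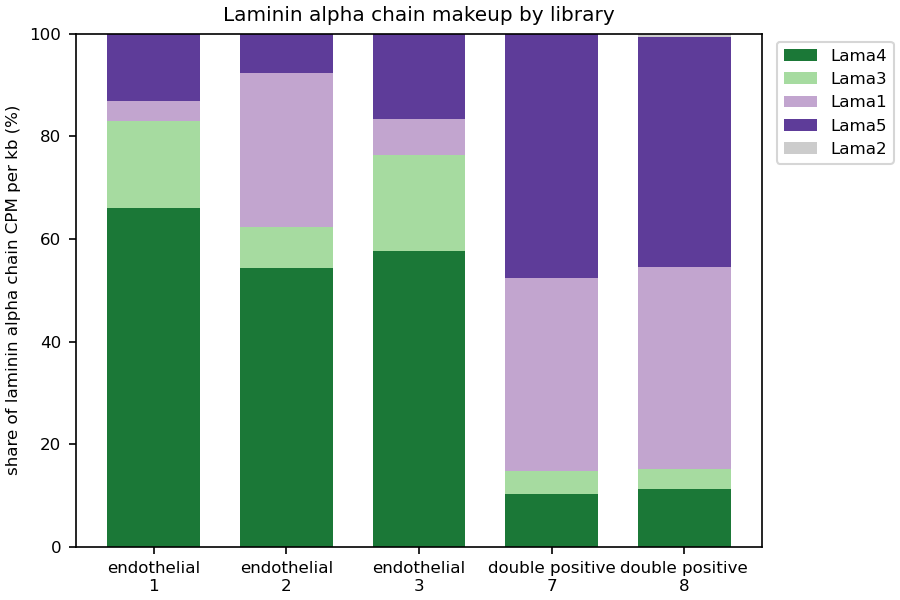
Share of each laminin alpha chain in the summed alpha chain CPM per kb of a library (vertical axis, percent), for endothelial replicates 1 to 3 and double positive replicates 7 and 8. Lama4 makes up 54.4% to 66.1% of the endothelial bars and 10.3% and 11.3% of the double positive bars, where Lama1 and Lama5 fill most of the rest.

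The laminin chains were also summed over each class. The 5 alpha chains summed to 5.85, 9.50 and 9.66 CPM per kb in endothelial and 8.95 and 6.89 in double positive libraries. The beta chains summed to 7.82, 12.0 and 9.14 against 8.40 and 7.26 CPM per kb, and the gamma chains to 5.59, 9.06 and 5.38 against 8.54 and 4.95 CPM per kb. All 3 class sums overlapped between the groups. Lamb1 made up 62.2%, 78.1% and 82.6% of the Lamb1 and Lamb2 level per kilobase in endothelial and 66.1% and 50.1% in double positive libraries. Lamb2, the beta2 chain, was not called (14.6 ± 4.32 against 19.5 ± 3.53 CPM, adjusted p = 0.698, edgeR).

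The members were also read per count of Cdh5 in the same library, a scale chosen after the data were seen. In double positive against endothelial libraries Cdh5 fell least of the 10 endothelial markers (log2 difference −2.03, median of the list −2.82). Nid1 stood at 1.04, 1.20 and 1.16 counts per Cdh5 count in endothelial and 1.29 and 0.934 in double positive libraries, and Hspg2 at 0.241, 0.334 and 0.308 against 0.317 and 0.266. On this scale these 2 linkers overlapped between the groups, and their fitted log2 differences were −0.03 and −0.02 (adjusted p = 0.921 and 0.972, edgeR). Lama4 overlapped as well, at 0.200, 0.362 and 0.305 against 0.242 and 0.167. Collagen did not: Col4a1 stood at 3.10, 3.01 and 2.96 counts per Cdh5 count in endothelial and 7.26 and 4.04 in double positive libraries (log2 difference 0.90, adjusted p = 0.0209, edgeR). Sparc stood at 5.78, 4.85 and 6.33 against 8.66 and 6.75, so both double positive libraries were above all endothelial ones, without passing (log2 difference 0.45, adjusted p = 0.139, edgeR). Col4a2, Lamb1, Lamc1, Lama1 and Lama5 were also higher per Cdh5 count, Lama5 by the most (log2 difference 3.91, adjusted p = 0.000172). This fit held the endothelial and double positive libraries alone. The median over all genes tested was 2.07 on this scale, against 0.041 with TMM in the same libraries, and 64.7% of genes were called higher, so the 6 members called higher on it are close to that background. The Col4a1 difference of 0.90 lay below that median. Scaled instead to the summed endothelial markers, the Nid1 and Hspg2 differences were positive and not called.

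**Figure D4:**
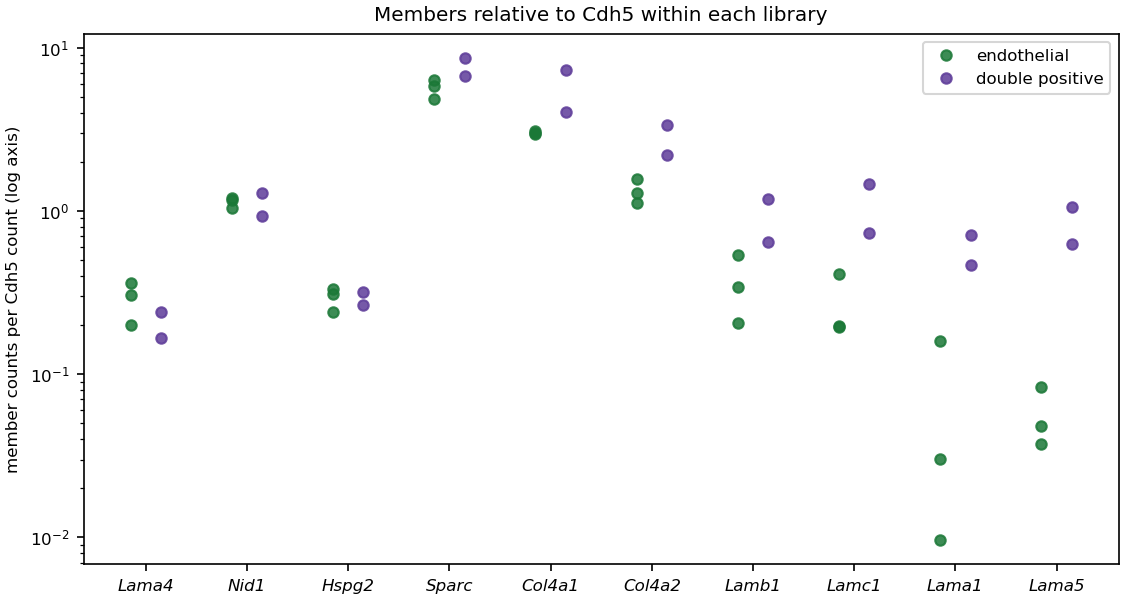
Counts of each member per count of Cdh5 in the same library (vertical log axis, no unit), for the 3 endothelial and 2 double positive libraries. Lama4, Nid1 and Hspg2 overlap between the groups, while both double positive points of the collagen chains and of Sparc, Lamb1, Lamc1, Lama1 and Lama5 lie above all endothelial points.

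The comparison of double positive with erythroid libraries shares the double positive libraries with the one above. All 10 members were higher in double positive libraries (edgeR, adjusted p under 0.05), where 42.0% of all genes tested were called, 31.5% higher and 10.6% lower. With library size alone the shares were 47.5% higher and 3.90% lower. Against the erythroid floor, Sparc was at least 1358-fold and Col4a1 at least 979.8-fold higher, and Lama4 at least 35.8-fold. Lama5 was at least 147-fold and Lama1 at least 103-fold higher. Lamc1 was 11.8-fold higher (log2 difference 3.56, SE 0.92, adjusted p = 0.0141), with a log2 difference of 2.95 without replicate 4, 4.44 without replicate 6 and 4.48 with library size alone. Nid1 had the smallest difference, 2.59-fold (59.1 and 52.4 against 26.3, 6.35 and 31.6 CPM, adjusted p = 0.0464, edgeR). The Nid1 call ended without replicate 4, 7 or 8 and in a fit of the 2 populations alone (adjusted p = 0.0549, 0.163, 0.111 and 0.122), and the Lamc1 call ended without replicate 7 (0.0754).

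Among other basement membrane components Col18a1 and Hmcn1 were lower and Fras1 higher in double positive than in endothelial libraries. Of 26 listed, 17 were tested, and in double positive against endothelial libraries 2 were lower and 1 higher (edgeR, median log2 difference −0.88), where 6.92% of all genes were lower and 14.6% higher, so the share called was near that background. Col18a1, a vessel basement membrane collagen that yields endostatin, fell from 185 ± 74.8 to 42.8 ± 3.47 CPM (adjusted p = 0.00972), and Hmcn1, a hemicentin gene, from 51.4 ± 35.0 to 7.40 ± 0.0836 CPM (adjusted p = 0.0399). Fras1, an epithelial basement membrane protein gene, rose from 0 to 25.1 ± 1.79 CPM, at least 167-fold (adjusted p = 0.00684). Nid2, the second nidogen, stood at 147 ± 21.8 against 64.2 ± 32.0 CPM without passing (adjusted p = 0.0573). Fbln1, which binds nidogen and laminin, stood at 3.60 ± 4.16 against 67.1 ± 7.01 CPM (adjusted p = 0.0528), and the proteoglycan gene Agrn at 44.3 ± 9.64 against 75.9 ± 23.8 CPM (adjusted p = 0.565). Tinagl1 was at a like level in all populations, with means of 130 ± 57.6 CPM in endothelial, 139 CPM in erythroid and 108 ± 29.1 CPM in double positive libraries. In erythroid against endothelial libraries 11 of the 17 were lower and 0 higher, where 26.6% of all genes were lower and 14.4% higher.

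Of 12 tested genes that assemble and cross-link collagen, 2 were lower and 1 higher in double positive than in endothelial libraries, near the 21.6% of all genes called. Serpinh1, the collagen chaperone Hsp47, fell from 146 ± 34.4 to 55.7 ± 3.89 CPM (adjusted p = 0.0176, edgeR) and was at 0 in erythroid libraries. Loxl3, a lysyl oxidase-like gene, fell from 9.32 ± 6.53 to 0.102 ± 0.144 CPM (adjusted p = 0.0355). P4hb, a subunit of prolyl 4-hydroxylase that also serves as protein disulfide isomerase in all secretory cells, rose from 631 ± 50.2 to 1181 ± 130.0 CPM (adjusted p = 0.00437). Pxdn, the peroxidase that cross-links type IV collagen, stood at 62.8 ± 22.0 against 37.9 ± 5.82 CPM (adjusted p = 0.28), and Plod1, a lysyl hydroxylase gene, at 161 ± 34.1 against 44.1 ± 12.2 CPM (adjusted p = 0.128). The hydroxylase gene P4ha1, the galactosyltransferase gene Colgalt1 and the collagen export gene Mia3 did not pass (adjusted p = 0.779, 0.674 and 0.675).

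Receptors for these proteins were read as a fixed list of 14, of which 11 were tested, and 3 were lower and 1 higher in double positive than in endothelial libraries, where 6.92% of all genes were lower and 14.6% higher. Itgb1, the beta1 integrin subunit shared by most laminin and collagen receptors, fell from 493 ± 54.5 to 116 ± 10.4 CPM (adjusted p = 0.000431, edgeR). Itga1, a collagen IV receptor subunit, fell from 44.7 ± 16.8 to 10.2 ± 0.0416 CPM (adjusted p = 0.0311), and Itga6, a laminin receptor subunit, from 122 ± 8.29 to 65.4 ± 0.527 CPM (adjusted p = 0.0328). Ddr1, a collagen receptor kinase of epithelia, rose from 0 to 17.7 ± 3.66 CPM, at least 117-fold (adjusted p = 0.0112). Sdc4, a syndecan, stood at 72.0 ± 58.3 against 291 ± 37.6 CPM (adjusted p = 0.0584), and Dag1, the dystroglycan gene, at 23.1 ± 8.95 against 51.4 ± 11.3 CPM (adjusted p = 0.111). Among 10 matrix protease and inhibitor genes 3 were lower and 0 higher, against the same shares of all genes. They were the gelatinase gene Mmp2 (61.7 ± 10.4 to 9.88 ± 0.726 CPM, adjusted p = 0.00533), its membrane-bound activator Mmp14 (77.8 ± 8.77 to 17.1 ± 4.53 CPM, adjusted p = 0.0075) and the matrix-bound inhibitor Timp3 (216 ± 79.6 to 49.4 ± 11.7 CPM, adjusted p = 0.0118). Adamts1 and Adamts4 did not pass (adjusted p = 0.0936 and 0.0836).

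Genes with the most similar pattern were sought among those with a mean of at least 20 CPM, by the root mean square difference of log2(CPM + 1), less each gene's mean of the 3 population means, over the 8 libraries, given as a description. Nearest to Col4a1 of 5191 genes were Anxa2 (0.341 log2 units), Igf2 (0.400), Igfbp4 (0.409), Sparc (0.419) and 8430408G22Rik (0.433), with Col4a2 at place 12 (0.568). Nearest to Lama4 were Fgd5 (0.200 log2 units), Plekhg1 (0.200), Klf2 (0.209), Tgfbi (0.222) and Hspg2 (0.234). For genes at 0 in erythroid libraries this distance depends on the level itself: the 5 nearest to Col4a1 averaged 364 to 1612 CPM in endothelial libraries and those nearest to Lama4 54.0 to 72.3 CPM, so nearness is partly likeness in level. Nearest to Lama1 were Lpgat1, Ethe1, Ctsa, Ctsz and Npc2, at 0.654 to 0.722 log2 units.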

How the data were processed

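Polyadenylated RNA from pools of 24 or 25 sorted cells went through Smart-seq2, a full-length method without molecular identifiers, with 14 PCR cycles, per the labels' protocols. The authors deposited raw read counts per gene symbol, counted with HTSeq after FastQC on genome build mm10, per the submitters' processing notes. Tool versions, aligner, gene annotation and strand use: not given in the sources used here. All 8 columns were matched to samples by title, and no 2 libraries held identical counts.

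Fits used edgeR 4.0.16, DESeq2 1.42.0 and limma 3.58.1 (R 4.3.3), and ratios and exact tests scipy 1.17.1 (python 3.11.15). Genes passed filterByExpr at a minimum count of 10 (12136 genes), were scaled by TMM and were fitted with edgeR's robust quasi-likelihood model with 1 mean per population over 8 libraries. P-values were two-sided and adjusted by Benjamini-Hochberg over all genes tested, with a threshold of 0.05. The fit was also run on simulated counts with few changed genes. That setting leaves out the wide shifts between these populations, so no result here rests on it. Exact permutation tests compared ratios within libraries. Lengths and positions came from GENCODE M21 (GRCm38) and sequences from RefSeq (GRCm38.p6).

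The members, the lists and the rules were chosen with earlier results of these data known. All 10 members are named. From each wider list the 4 genes with the smallest adjusted p in double positive against endothelial libraries are named, with any gene at 50 CPM or more in a population that did not pass. For Col4a1, Lama4 and Lama1 the 5 nearest patterns are named. Other tools (limma-voom, DESeq2), other scalings (library size alone, RLE factors from relative log expression, Rn45s or globin genes removed), other filters (none, or a count minimum of 50), fits of the compared populations alone, other gene lengths and leaving out each library were tried. Scaling to Cdh5 or to the summed endothelial markers was added after seeing the data.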

Additional observations from a re-analysis of the deposited data

How the results depend on the processing

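In erythroid against endothelial libraries all 10 members stayed lower and past the threshold in all 15 refits. Library size alone changed the share of all genes called there to 3.46% higher and 59.9% lower, and in double positive against erythroid libraries to 47.5% higher and 3.90% lower. In double positive against endothelial libraries it gave 9.21% higher and 15.7% lower, DESeq2 11.7% lower, and a fit of those populations alone 12.0% lower. There 1 member, Lama5, was called higher with limma-voom and in the fit of those populations alone. With 1 library left out in turn, between 1 and 6 members were lower, 5.41% to 13.5% of all genes higher and 1.70% to 5.62% lower. Against erythroid libraries these ranges were 8 to 10 members higher, 18% to 29.7% of genes higher and 4.74% to 9.47% lower. Where 1 double positive library is left, it is assumed to vary like the other groups.

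The log2 difference of Lamc1 between double positive and endothelial libraries turned negative with DESeq2 (−0.11), RLE factors (−0.11), Rn45s removed (−0.0048), library size alone (−0.60), globin genes removed (−0.0072) and a minimum count of 50 (−0.0034), and ran from −0.38 to 0.32 with 1 library left out. No fit passed.

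Scaled to the summed endothelial markers, chosen after seeing the data, 7 members were higher and 0 lower, with 76.9% of all genes higher and 0.598% lower. Differences that turned positive were those of Col4a1 (1.74), Col4a2 (1.90), Lama4 (0.31), Lamb1 (2.13), Nid1 (0.79), Hspg2 (0.79) and Sparc (1.28). Scaled to Cdh5, 6 members were higher and 0 lower, with 64.7% of all genes higher and 1.48% lower, and Col4a1 (0.90), Col4a2 (1.07), Lamb1 (1.33) and Sparc (0.45) turned positive. The construction of these scales, a divisor that is itself lower in double positive libraries, raises every gene.

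The shares of Lama1, Lama3, Lama4 and Lama5 kept their direction under the 3 other length settings and with each of 5 libraries left out, and the ratios with each library left out (length cancels from their difference). The Lama3 difference was −5.36 percentage points with the longest transcript, against −10.3. No paired analysis was possible because no replicate number is shared between groups. There were only 2 double positive libraries. Folds against erythroid groups at 0 counts are lower bounds that depend on the effective library sizes. Those sizes were 3066604 to 4290630 in erythroid libraries, of total counts of 5291843 to 7618444. Globin genes took 54.5% to 56.5% of the counts there.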
